A study of Mus musculus with 6 samples.

Results

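Cells that carry both the transcripts of dividing cells and those of the superficial layer of the urothelium were examined in the mucosa of the mouse bladder by single-cell RNA sequencing. They were chosen by their own UMI (unique molecular identifier, 1 per captured mRNA molecule) counts in all 6 libraries. A cell with over 500 detected genes was taken as urothelial where Krt5, Krt7, Krt8, Krt15, Krt18 and Krt19 summed to at least 20 UMIs and to over 2 times the sum of Col1a1, Col1a2, Col3a1 and Dcn, with no UMI of Ptprc or Pecam1. It passed the superficial gate where Acer2 and Krt20 summed to at least 5 UMIs and to more than Krt5, Krt14, Col17a1 and Dlk2 together. It was called cycling where Top2a, Mki67, Birc5 and Ube2c summed to at least 3 UMIs. These gates held 706 of 55399 cells, which were 706 of 38641 urothelial cells, 706 of 4352 superficial-gate cells and 706 of 2130 cycling urothelial cells. The gates name what was counted in a cell, and no image or lineage mark bears on where the cell sat in the tissue.

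The mucosal layer was peeled from bladders of wild type C57BL/6 mice aged 8 weeks, and each condition had 2 droplet libraries. Healthy mice were untreated, acutely injured mice were examined 48 h after CPP (cyclophosphamide), and chronically injured mice had received 4 rounds of CPP over 11 days. By the study's account, the chronically injured bladders were also taken 48 h after the last injection, with a lower dose per injection than in acute injury. The study used several mice per condition, and the labels do not say which mice entered which library, so a p-value measures only the spread between libraries. Libraries are named by condition and replicate number, and values in the text follow the order healthy 1, healthy 2, acute 1, acute 2, chronic 1 and chronic 2 unless stated otherwise.

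The urothelium is a layered epithelium in which basal cells rest on the matrix, intermediate cells lie above them and large superficial cells face the urine. Superficial cells assemble uroplakin proteins into the plaques that seal the bladder surface, and they are usually described as long-lived and seldom dividing. Cyclophosphamide is broken down to products that reach the urine and strip these cells, after which the layers below divide and the surface is rebuilt.

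The 6 libraries held between 54604109 and 111985678 UMIs, and 5348 to 13864 cells per library passed 500 genes. Libraries shared between 0.673% and 2.28% of the cell barcodes of the smaller library of each pair. Acute 2 stood apart in stromal RNA, as the summed level of 8 mesenchymal genes in cycling superficial-gate cells was 644 CPM (the share of the summed UMIs of a class in a library, where 10000 CPM are 1% of them) there against 75.6 to 219 CPM in the other 5 libraries. The corresponding sum over 16 immune genes was 51.0 CPM in acute 1, against 89.7 to 267 CPM in the others.

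The cells were few in healthy mucosa and most frequent after acute injury. There were 6 and 6 in the healthy, 400 and 148 in the acute and 73 and 73 in the chronic libraries. As a share of superficial-gate cells they made up 1.65% (95% exact binomial interval 0.609 to 3.56) and 1.72% (0.633 to 3.70) in the healthy libraries. The acute libraries were at 38.9% (35.9 to 41.9) and 19.0% (16.3 to 21.9). The chronic libraries were at 6.91% (5.46 to 8.61) and 9.41% (7.45 to 11.7). Both acute libraries were above both chronic ones, and both chronic ones above both healthy ones, while the acute libraries were farther from each other than the chronic from the healthy libraries. The intervals cover counting error only.

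The mean share was 28.9% ± 14.1 (SD, n = 2) after acute injury, 8.16% ± 1.76 (SD, n = 2) after chronic injury and 1.69% ± 0.0469 (SD, n = 2) in healthy mucosa. Acute exceeded healthy mucosa by 27.2 percentage points and chronic mucosa by 20.8, and chronic exceeded healthy mucosa by 6.47. Each had p = 0.333 by an exact two-sided permutation test over libraries (adjusted p = 0.333 over the 3 comparisons), the smallest value that 2 libraries against 2 can give, so the design could not reach 0.05.

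A gate on UMI sums passes more easily in cells with more UMIs, and the cycling superficial-gate cells were deep. Their median was 28076, 23944, 22890, 23787, 13356 and 22033 UMIs per cell, and the non-cycling cells of the superficial gate, those with at most 2 proliferation UMIs, had 19421, 15525, 15745, 18467, 10106 and 15013. The ratio between the medians of cycling and non-cycling cells was between 1.29 and 1.54 in every library. When each cell was thinned to 10000 UMIs and shallower cells were left out, the cycling share of superficial-gate cells was 1.45%, 1.70%, 25.3%, 10.5%, 9.09% and 5.49%. Thinned to 5000 UMIs it was 3.92%, 2.56%, 7.57%, 4.43%, 0.607% and 1.57%. At 3000 UMIs acute 1 was at 2.22%, from 3 cycling cells, and the other 5 libraries at 0%, with 13 to 183 superficial-gate cells left in them. Both acute libraries were the highest at 10000 and 5000 UMIs but not at 3000 UMIs, whereas the chronic libraries lay above the healthy ones at 10000 UMIs and below them at 5000 UMIs, where 2 to 28 cycling cells per library were left.

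**Figure D1:**
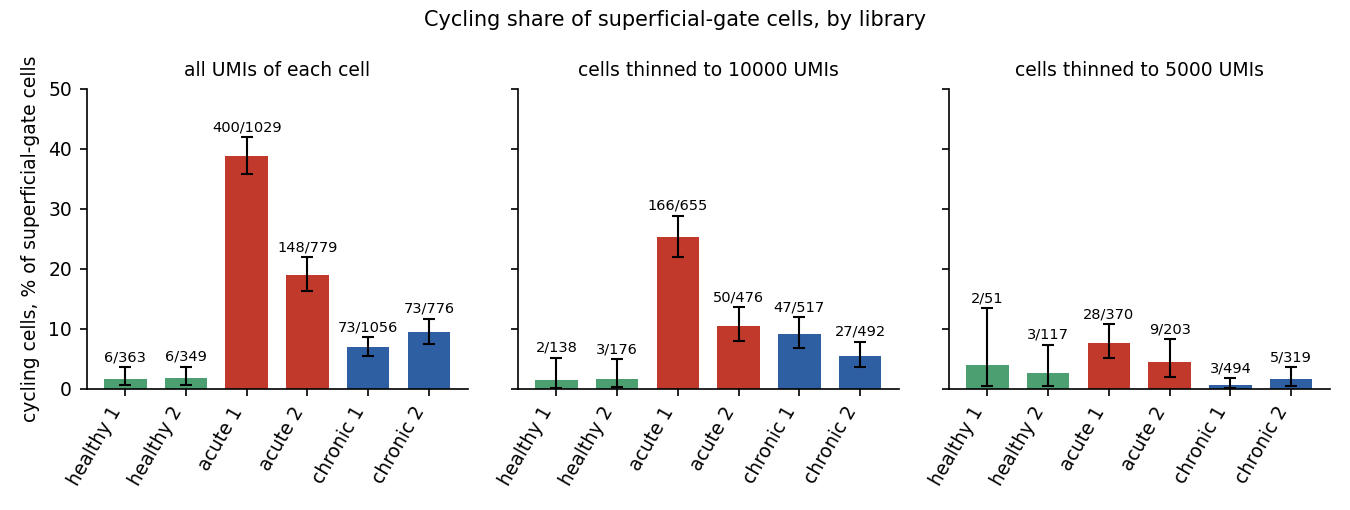
Each bar is the share of superficial-gate cells that were cycling (y axis, percent) in 1 library (x axis), with the 95% exact binomial interval and the counts of cells above it, for gates on all UMIs of each cell (left), on cells thinned to 10000 UMIs (middle) and on cells thinned to 5000 UMIs (right). The acute bars, at 38.9% and 19.0% on the left, are the tallest in each panel, while the order of chronic and healthy bars turns at 5000 UMIs.

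Among all cycling urothelial cells, the superficial gate took 7.89%, 35.3%, 32.8%, 34.7%, 33.0% and 42.9% by library. Its part of the dividing cells was thus between 32.8% and 42.9% in the 4 libraries of injured mucosa, and the healthy values rest on 76 and 17 cycling cells. The part depended on depth and on the gate, as over the 4 injured libraries it was 16.4% to 43.9% with cells thinned to 10000 UMIs, 2.31% to 6.25% at 5000 UMIs and 11.3% to 27.1% at an Acer2 and Krt20 sum of at least 10. The remaining cycling cells were split by the same kind of gate into basal-gate cells, with at least 2 UMIs of Krt14, Col17a1 and Dlk2 and more basal than superficial UMIs, and intermediate-gate cells, which passed neither gate. The 57, 7, 620, 235, 138 and 93 cycling intermediate-gate cells and the 13, 4, 199, 44, 10 and 4 cycling basal-gate cells serve below as the nearest comparisons, with libraries of at least 20 cells in each class.

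The gates alone fix high levels of their own genes, so the following levels describe the cells and test nothing. Top2a, the topoisomerase that untangles replicated DNA, was at 181, 112, 117, 164, 193 and 121 CPM in the cycling superficial-gate cells. Non-cycling superficial-gate cells had 2.48, 1.38, 9.32, 6.17, 5.22 and 5.13 CPM of it. Acer2, an alkaline ceramidase, was at 1107, 1312, 766, 709, 841 and 839.9 CPM in cycling and 803, 1356, 1599.9, 1089, 1280.5 and 1369 CPM in non-cycling superficial-gate cells. The healthy values of the cycling cells come from 6 cells per library, in which 1 UMI amounts to 9.54 and 11.2 CPM. Acer2 was lower in cycling than in non-cycling cells of the same gate in all 4 injured libraries, yet several times its level in cycling intermediate-gate cells, 123, 119, 192 and 181 CPM in acute 1, acute 2, chronic 1 and chronic 2. Deeper cells can pass the gate at a lower CPM of its genes, and the cycling cells were the deeper. Their median sum of Acer2 and Krt20 was 12, 11, 8 and 11 UMIs in these libraries, against 14, 11, 9 and 11 in non-cycling cells. The part of depth in the lower CPM was not tested.

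Other genes by which the cells are described were not used by the gates. Psca, a surface antigen of the urothelium, was found in 100% of the cells, at 9609, 16003, 8839, 9515, 13044 and 10470.4 CPM. It reached 1977, 2292, 5158 and 3164 CPM in the cycling intermediate-gate cells of the 4 injured libraries and 450.4 and 370.3 CPM in the cycling basal-gate cells of the acute ones. The superficial-gate cells were thus the higher in each of these libraries, though below the 14211, 13239.8, 15527 and 11724 CPM of non-cycling superficial-gate cells. Cdca3, which triggers the entry into mitosis, was at 706, 415, 388, 308, 344 and 349 CPM, Tk1, the thymidine kinase of S phase, at 124, 168, 98.1, 114, 143 and 124 CPM, and Spc24, a part of the kinetochore, at 57.3, 33.6, 97.8, 106, 95 and 89.7 CPM. In non-cycling superficial-gate cells these 3 genes had at most 19.3 CPM in any library. Against cycling intermediate-gate cells of the 4 injured libraries, the log2 fold change in edgeR was -0.17, SE 0.0894, adjusted p = 0.141 for Cdca3, 0.06, SE 0.107, adjusted p = 0.700 for Tk1 and -0.35, SE 0.0989, adjusted p = 0.00548 for Spc24. None of the 3 was therefore called higher than in that other cycling class, and Spc24 was lower.

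Within the group the cells varied. The proliferation sum had a median between 7 and 26.5 UMIs by library and reached 50. At the edges of the gates, 64 cells had a proliferation sum of exactly 3 while 89 superficial-gate cells had 2 and stayed outside, and 56 cells had an Acer2 and Krt20 sum of exactly 5 while 56 cells with 4 stayed outside. Krt20, the keratin of the superficial layer, had a UMI in 77.1% of the cells, and 90.4% would have passed on Acer2 alone. No UMI of the 4 basal genes was found in 37.1% of them, or 262 cells. Krt14 was at 0, 0, 1.03, 0.907, 0 and 1.95 CPM over the summed cells, against 381 and 252 CPM in the cycling basal-gate cells of acute 1 and acute 2.

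Cells that share a droplet, and free RNA, can place markers of different cells together. Scrublet scores called 0%, 0%, 6.00%, 7.43%, 2.74% and 0% of the cells doublets, against 1.96% to 5.60% of the non-cycling superficial-gate cells and 4.28% to 11.1% of all cells. In both acute libraries they were called more often than the non-cycling cells of the same library, of which 3.5% and 3.80% were called. In healthy 1, healthy 2, chronic 1 and chronic 2 they were called less often, as the non-cycling cells there were at 1.96%, 2.62%, 5.60% and 2.845%. In cells with mesenchymal collagen, which should lack both genes, an Acer2 and Krt20 sum of at least 5 was found in 0% to 0.388%, against 5.82% to 19.0% of urothelial cells, at median depths of 2508 to 4917 and 6066 to 11139 UMIs. At least 1 UMI of Acer2 or Krt20 was found in 6.06% to 25.9% of these mesenchymal cells, and at least 1 UMI of Upk2 in 10.9% to 44.8%, so that low counts of superficial genes occurred in cells that should lack them. The part of shared droplets and free RNA in the results was not tested.

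Next, cycling and non-cycling cells of the superficial gate were set side by side in the 4 injured libraries. Because the gate separates these cells by proliferation genes, the differences describe the cells and carry no test. Of 9675 genes with a mean of at least 5 CPM, 5.3% were at least 1.5-fold higher in the cycling cells in all 4 libraries, and 0.413% were at least 1.5-fold lower. Genes of cell division had the largest differences, given as the mean ± SD of the log2 difference over the 4 libraries. Outside the gate, Cdca3 differed by 4.79 ± 0.387 and Ccnb2, a mitotic cyclin, by 4.79 ± 0.529. Lockd, a noncoding RNA beside Cdkn1b, differed by 4.70 ± 0.532, Ccna2, the cyclin of S phase and G2, by 4.52 ± 0.701 and Cdk1, their kinase, by 4.32. The gate genes themselves reached 5.35 for Birc5, 5.16 for Ube2c, 4.57 for Mki67 and 4.33 for Top2a.

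Most replication and mitosis genes, and about as many cytokinesis and G1 genes as not, were higher in the cycling cells. Of 43 DNA replication genes, 41 were at least 1.5-fold higher in all 4 libraries, with a median log2 difference of 2.26, and of 38 mitosis genes that reached 5 CPM, 36 (median 3.03). Of 27 cytokinesis genes 14 were (median 1.45), and of 25 cyclin, CDK and inhibitor genes of G1 14 (median 0.85), while 1 cytokinesis gene and 2 G1 genes were lower in all 4 libraries by any size. The median over all genes was 0.01. A gene could reach the level for description through the cycling cells alone, so the counts only describe what the gate selected.

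Repair genes and p53 targets stood beside them. Of 26 genes listed for the repair of crosslinks and double strand breaks 17 were at least 1.5-fold higher in all 4 libraries (median 1.57), among them Esco2, which acts in sister chromatid cohesion, by 4.26 ± 0.843. Of 21 targets of p53, the transcription factor that answers DNA damage, 6 were (median 0.62), namely Cdkn1a, Fas, Phlda3, Sesn2, Tnfrsf10b and Eda2r. Cdkn1a, the p21 inhibitor of cyclin kinases, was at 882, 863, 965 and 643 CPM in the cycling and 404, 210.2, 466 and 382 CPM in the non-cycling cells of acute 1, acute 2, chronic 1 and chronic 2. Its mean log2 difference was 1.24 ± 0.553, and Fas, a death receptor, differed by 1.52 ± 0.323. In healthy mucosa the 6 cells per library had 219 and 404 CPM of Cdkn1a, against 141 and 167 CPM in non-cycling cells. The inhibitor was therefore higher in the cycling cells than in the non-cycling cells of the same gate in all 6 libraries. It was lower than in cycling intermediate-gate cells, which had 1764, 1250.2, 1534 and 1318 CPM in the injured libraries (edgeR log2 fold change -0.75, SE 0.0886, adjusted p = 5.93e-08), and than in cycling basal-gate cells, which had 2628 and 1824 CPM in the acute ones (-1.21, SE 0.123, adjusted p = 2.42e-21). Of 22 p53 targets 14 were lower than in cycling intermediate-gate cells in all 4 injured libraries by any size and 1 higher, against 2509 lower and 1638 higher of 9833 genes, as a description with no test.

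Few transcripts of the differentiated state were past 1.5-fold in all 4 libraries, and by any size more of them were lower than higher in the cycling cells. By any size, 3 of 5 uroplakin genes were lower in all 4 libraries and 0 higher, against 1693 lower and 2362 higher of all 9675 genes. With the genes of the gates left out, 9 of 15 superficial and luminal markers were lower and 1 higher, and 7 of 18 ceramide enzymes were lower and 1 higher. Of 13 tight junction genes 5 were lower and 0 higher, of 21 genes of uroplakin vesicle traffic 7 and 4, and of 22 immediate-early and stress genes 11 and 3. None of 5 uroplakin genes was at least 1.5-fold higher or lower in all 4 libraries, with a median log2 difference of -0.21. Upk1a, which pairs with Upk2 in the plaque, was at 6126, 8198, 4865, 4739, 8147 and 7361 CPM in cycling and 5790.0, 7117, 6140.5, 5726, 9225 and 7677 CPM in non-cycling cells. Upk3a, which anchors the plaque to the cell skeleton, was at 6546, 6885, 7454, 4932, 8321 and 7328 CPM in cycling and 5551, 5614, 7141, 5401, 7451 and 5299 CPM in non-cycling cells. The difference ranged over the list from -0.41 for Upk1b to 0.14 for Upk3a, and these values were within 1.5-fold in every library for Upk1a, Upk2 and Upk3a. Of 21 superficial and luminal markers, which include the gate genes Acer2, Krt20, Krt7, Krt8, Krt18 and Krt19, 1, Acer2, was at least 1.5-fold lower and 0 higher, and of 21 genes of uroplakin vesicle traffic 1, Rab13, was higher and 0 lower (median -0.09). Tight junction genes (0 higher and 1 lower of 13, Pard6b), ceramide enzymes (0 and 1 of 19, again Acer2), interferon response genes (0 and 0 of 16) and nuclear genes of oxidative phosphorylation (0 and 0 of 33) likewise held at most 1 gene past 1.5-fold. The last of these lists went the other way by any size, with 2 lower and 11 higher. Of 22 immediate-early and stress genes 1, the chaperone gene Hsp90aa1, was higher and 0 lower, and of 22 EGF, FGF and BMP ligand and receptor genes 0 were past 1.5-fold in all 4 libraries.

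Among genes of differentiation factors, Notch1, a receptor of cell contact signalling, was the exception, at 197, 159.7, 169.9 and 183 CPM in the cycling and 114, 89.9, 91.4 and 118 CPM in the non-cycling cells of the injured libraries. It differed by 0.78 ± 0.107 and was higher in the cycling cells in 4 of 4 libraries, but in the healthy libraries it was at 85.9 and 67.3 CPM in cycling and 110.1 and 117 CPM in non-cycling cells. Itgb4, an integrin that ties basal cells to the matrix, differed by 0.75 ± 0.185, the one gene of 20 basal and adhesion genes past 1.5-fold in all 4 libraries. The other genes of these 2 lists were not past that fold in the same direction in every library. By any size, 5 of 21 differentiation factor genes were lower in all 4 libraries and 2 higher (median -0.14). Of 18 basal and adhesion genes outside the gates, 8 were lower and 2 higher (median -0.20). Over all 9675 genes 1693 were lower and 2362 higher, so Notch1 and Itgb4 do not stand for their lists.

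Of the lists, that of injury, barrier and wound genes held the most genes at least 1.5-fold lower in cycling cells, with 4 of 17 lower and 0 higher. By any size, 7 of its genes were lower and 2 higher in all 4 libraries, and other lists held more that were lower. Sprr2f, a small proline-rich protein of cell envelopes, was at 9.54, 33.6, 24.7, 26.8, 77.8 and 76.1 CPM in cycling and 91.9, 147, 82.9, 190.2, 343 and 237 CPM in non-cycling cells. Ivl, the envelope protein involucrin, was at 439, 437, 322, 338, 390.2 and 333 CPM in cycling and 1239.6, 1374, 795, 731, 849 and 819 CPM in non-cycling cells. The cycling cells thus had less of both in all 6 libraries, and for Ivl every cycling value was below every non-cycling value. In the healthy libraries, with 6 cycling cells each, 1 UMI amounts to 9.54 and 11.2 CPM. The healthy Sprr2f values of cycling cells therefore rest on few UMIs. Tff1, a trefoil peptide of mucosal surfaces, differed by -1.37 ± 0.342, and Plat, the tissue plasminogen activator, by -1.07 ± 0.383. Outside the lists, Hist1h2bc, a histone gene, differed by -1.65 ± 0.286, Acss2, which makes acetyl-CoA from acetate, by -1.23 ± 0.316, Idh1, the cytosolic isocitrate dehydrogenase, by -0.93 ± 0.287, and Meg3, a long noncoding RNA, by -1.59 ± 1.20. Of 25 genes of sterol and fatty acid synthesis 19 were lower in all 4 libraries by any size and 0 higher (median -0.36), against the 1693 and 2362 of 9675 genes given above, while 1 was past 1.5-fold. Msmo1, a sterol oxidase, was at 117, 104, 149.8 and 129 CPM in the cycling and 219, 179.6, 257 and 238 CPM in the non-cycling cells of the injured libraries.

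**Figure D2:**
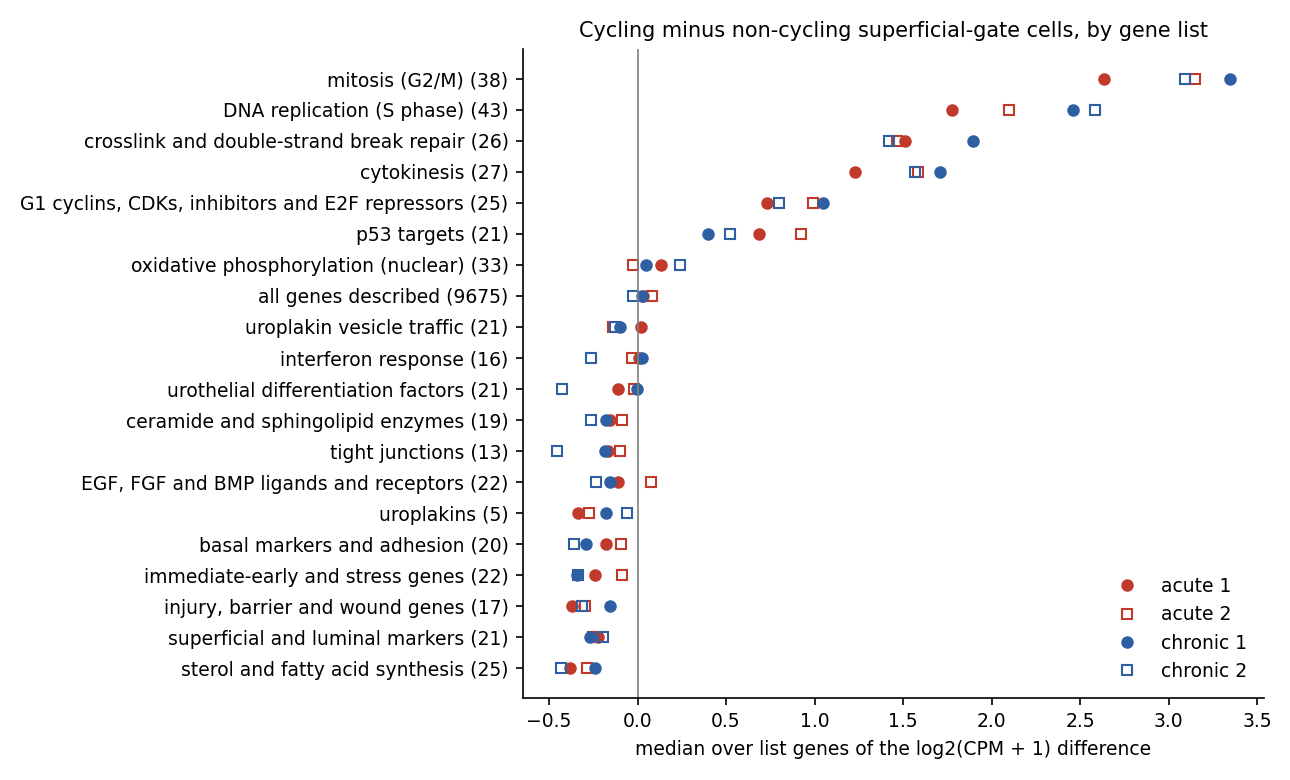
Each point is the median over the genes of a list (rows, with the number of genes of at least 5 CPM) of the difference in log2(CPM + 1) between cycling and non-cycling superficial-gate cells (x axis) in 1 of the 4 injured libraries. Mitosis and replication lists lie far to the right in every library, with medians of the mean difference of 3.03 and 2.26, and the uroplakin and superficial marker lists lie just left of 0.

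The cycling superficial-gate cells were then compared with other dividing urothelial cells, which had passed the same proliferation gate. The superficial gate fixes the differentiation genes here, and these are again given without a test. Of 9833 genes, 1.94% were at least 1.5-fold higher than in cycling intermediate-gate cells in all 4 injured libraries, and 4.83% at least 1.5-fold lower. Of 6 uroplakin genes 5 were higher (median log2 difference 1.33). Upk1a was at 4865, 4739, 8147 and 7361 CPM in the cycling superficial-gate cells of acute 1, acute 2, chronic 1 and chronic 2, and at 1671, 1692, 3972 and 2852 CPM in the cycling intermediate-gate cells of these libraries. The exception was Upk3bl, at 4.81, 4.08, 2.88 and 4.88 against 67.7, 31.4, 24.9 and 17.2 CPM. Of 22 basal and adhesion genes 15 were lower and 0 higher (median -1.68), a count that includes genes of the gates. Of the 19 outside the gates, 18 were lower and 0 higher in all 4 libraries by any size. Over all 9833 genes 2509 were lower and 1638 higher by any size. Trp63, the transcription factor of basal cells, was at 45.5, 44.9, 51.8 and 65.4 against 181, 155, 121 and 183 CPM.

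Sterol synthesis and stress genes also set the classes apart. Of 25 sterol and fatty acid genes 7 were at least 1.5-fold higher in all 4 libraries and 0 lower (median 0.77). Sqle, the squalene epoxidase, was at 77.2, 58.5, 85.0 and 59.5 CPM against 48.8, 20.3, 43.3 and 29.7 CPM in cycling intermediate-gate cells. The cycling cells of the superficial gate thus had sterol transcript levels between those of cycling intermediate-gate cells and non-cycling superficial-gate cells, which had 101, 72.7, 106 and 90.0 CPM of Sqle. Of 22 immediate-early and stress genes 0 were higher and 6 lower (median -0.56), with Atf3, a stress transcription factor, at 330.3, 218, 302 and 302 against 914, 526, 539 and 779 CPM. Notch1 was lower than in cycling intermediate-gate cells, which had 669, 469.6, 314 and 536 CPM. Against the cycling basal-gate cells of the 2 acute libraries, 11.1% of 9900 genes were at least 1.5-fold higher in both libraries and 16.8% lower. By that fold, 5 of 6 uroplakin genes were higher (median 2.96), 17 of 24 sterol genes higher, 23 of 24 basal genes lower and 17 of 22 immediate-early genes lower. The 24 basal genes include genes of the gates. Of the 19 outside the gates, 18 were lower and 1 higher in both libraries by any size, against 4170 and 3174 of 9900 genes.

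Cell cycle genes outside the proliferation gate were not used to tell these classes apart, and their differences were tested on summed UMIs by the quasi-likelihood method of edgeR, with the library as a block and p-values adjusted after Benjamini and Hochberg over all genes. Genes of mitosis were lower in cycling superficial-gate cells than in cycling intermediate-gate cells. Of all 9975 genes tested, 17.0% were higher and 18.9% lower at an adjusted p below 0.05. Of 143 cell cycle genes, 15 were higher and 65 lower (median log2 fold change -0.28, against -0.01 over all genes). The mitosis list held 0 higher and 35 lower of 44 genes (median -0.76), and the cytokinesis list 1 higher and 17 lower of 28 (median -0.57). The replication list held 10 higher, a share near that of all genes, and 4 lower of 43 (median 0.10), and the G1 list 4 higher and 9 lower of 28 (median -0.04).

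Cdc20, which activates the ubiquitin ligase that starts anaphase, was at 26.8, 23.6, 44.6 and 21.5 CPM in the cycling superficial-gate cells of acute 1, acute 2, chronic 1 and chronic 2. Cycling intermediate-gate cells had 90.7, 96.8, 119 and 73.5 CPM of it in these libraries, so that each value lay above each value of the superficial-gate cells. The log2 fold change was -1.72, SE 0.125, adjusted p = 2.26e-12. Prc1, which bundles the microtubules of the dividing spindle, was at 41.6, 69.9, 44.6 and 46.8 against 127, 188, 110.2 and 109 CPM, a log2 fold change of -1.40, SE 0.108, adjusted p = 1.00e-11. Hmgb2, a chromatin protein abundant in dividing cells, was at 341, 548, 360.0 and 352 against 1068, 1280.1, 651 and 783 CPM (-1.19, SE 0.0997, adjusted p = 5.75e-11). Neither gene overlapped between the classes.

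Other genes of mitosis and cytokinesis that fell without overlap were Ccnb1, the cyclin that drives entry into mitosis (log2 fold change -1.11), Incenp, the scaffold of the Aurora B kinase (-1.07), Cenpa, the histone of centromeres (-0.99), Nusap1, a spindle protein (-0.91), Ccna2 (-0.87), Smc2, a condensin subunit (-0.82), and Racgap1, which sets the cleavage plane (-0.75). Anln, the anillin of the cleavage furrow, fell most in the cytokinesis list, by 2.19 on the log2 scale, at 9.62, 8.16, 17.3 and 10.7 against 55.4, 45.6, 31.5 and 34.4 CPM. Of the genes that rose, Ccnd3, a cyclin of G1, was at 146, 163, 189 and 132 against 97.7, 105, 127 and 98.5 CPM (0.63, SE 0.0959, adjusted p = 4.51e-06). Rfc5, part of the loader of the replication clamp, was at 115, 91.6, 107 and 106 against 79.7, 71.9, 65.6 and 76.6 CPM (0.55, SE 0.104, adjusted p = 8.19e-05). Cdc6, which licenses replication origins, was lower in level and rose more, 34.2, 40.8, 63.4 and 39.0 against 14.4, 12.7, 18.4 and 28.1 CPM (1.38, SE 0.165, adjusted p = 6.82e-08). Gins2, of the replicative helicase, rose by 0.35, and Ccnd2, with overlapping levels, by 1.05.

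Mitosis genes were also lower than in cycling basal-gate cells in the 2 acute libraries. There 17.8% of 9956 genes were higher and 18.1% lower at an adjusted p below 0.05 in edgeR. The mitosis list held 0 higher and 35 lower of 45 genes (median -1.22), the cytokinesis list 1 and 18 of 28 (median -0.92) and the replication list 8 and 4 of 43 (median 0.25), where the share that was higher was near that of all genes. Cdc20 was at 268 and 230.3 CPM in the cycling basal-gate cells of acute 1 and acute 2, a log2 fold change of -3.19, SE 0.189, adjusted p = 1.47e-60. Cenpe, a motor of the kinetochore, was at 22.5 and 28.1 CPM in the superficial-gate and 126 and 140.0 CPM in the basal-gate cells (-2.30, SE 0.212, adjusted p = 2.33e-25). Ccnd3 was at 146 and 163 against 54.1 and 62.2 CPM, a rise of 1.54, and Cdc6 at 34.2 and 40.8 against 9.02 and 12.4 CPM, a rise of 1.98. With 2 libraries, the p-values of this fit, that for Cdkn1a above among them, rest on a spread between libraries that edgeR pools over genes. Their size is therefore no measure of how closely the 2 libraries agree on a gene. Both comparisons draw on the same cycling superficial-gate cells, so they are not independent of each other.

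Depth moved with this result. The cycling superficial-gate cells had a median UMI count 1.64 to 2.44 times that of cycling intermediate-gate cells over the 6 libraries, so that 3 proliferation UMIs asked for a lower level in them, and the gate genes were lower too, with Ube2c at 449.6, 398, 287 and 380.5 against 867, 850.0, 634 and 702 CPM and Mki67 at 60.3, 83.0, 114 and 60.5 against 151, 197, 172 and 144 CPM. The planned gate on cells thinned to 5000 UMIs left 28, 9, 3 and 5 cycling superficial-gate cells in acute 1, acute 2, chronic 1 and chronic 2. With at least 20 cells asked of a library, the tests across genes could not be run with it. With gates on cells thinned to 10000 UMIs, an alternative chosen after the data were seen, the lower genes numbered 33 and the higher genes 11 of 133, where 9.25% of all 8185 genes tested were higher and 10.5% lower. Of these, 31 and 9 were the same as without thinning. Mitosis genes then numbered 0 higher and 17 lower of 40 (median -0.39), and replication genes 8 higher and 1 lower of 42 (median 0.23). The thinning applied to the gate only and the sums kept all UMIs of the cells it passed, and with it the difference in the mitosis list was smaller, in the same direction. Against basal-gate cells the thinned counts were 16 higher and 52 lower of 130, where 15.1% of all 7765 genes were higher and 15.6% lower. Replication genes were then 12 higher and 3 lower of 38 (median 0.32), a larger share higher than over all genes, unlike without thinning. Mitosis genes were 0 higher and 28 lower of 41 (median -0.96). With superficial-gate cells that had no UMI of Krt5, Krt14, Col17a1 or Dlk2, in the 3 injured libraries with at least 20 such cells, 13 of 144 cell cycle genes were higher and 55 lower than in cycling intermediate-gate cells, against 12.9% and 14.8% of all 9661 genes. With called doublets left out they were 11 and 67 of 143, against 16.1% and 18.3% of all 9718 genes.

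**Figure D3:**
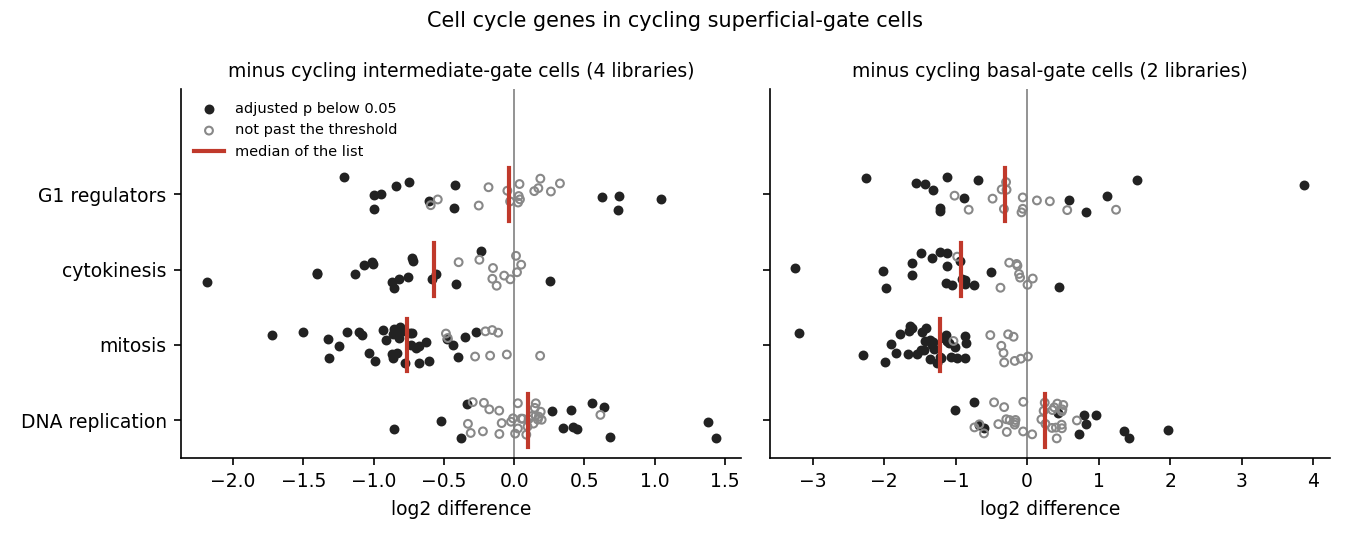
Each point is a cell cycle gene, placed by its log2 fold change (x axis) in cycling superficial-gate cells minus cycling intermediate-gate (left) or basal-gate cells (right) and by its list (rows). Filled points passed an adjusted p of 0.05, open points did not, and the red bar is the median of the list. All but 1 of the mitosis points in each panel lie left of 0, with medians of -0.76 and -1.22, and the replication points lie around it, with medians of 0.10 and 0.25.

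The promoters of the mitosis list often held a pair of known motifs. The CHR element (letters TTTGAA) and the CCAAT box (letters CCAAT), which are known to be bound by the complexes that time mitotic transcription, were searched on both strands in the 250 bases before the starts of genes in RefSeq (GRCm38.p6). Over all 32851 promoters, 16.0% held TTTGAA, 33.8% CCAAT and 5.55% both. For the mitosis list, with 40 of 45 genes and 42 promoters matched, the shares were 42.9%, 81.0% and 40.5%. For the replication list, with 35 of 43 genes and 40 promoters, they were 10.0%, 52.5% and 7.5%. The 65 cell cycle genes that were lower than in cycling intermediate-gate cells, of which 55 matched with 62 promoters, had 38.7%, 69.4% and 35.5%. The 15 that were higher, of which 13 matched with 18 promoters, had 5.56%, 22.2% and 0.0%. Of the 65 lower genes, 35 were of the mitosis and 17 of the cytokinesis list, and of the 15 higher genes 10 were of the replication list. The shares of these 2 sets are therefore not independent of those of the lists. They count promoters, so a gene with several starts counts more than once.

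The windows of 5 of these genes are given on their own strand, 5′ to 3′, with matches to either motif on either strand in capitals. Cdc20 (chr4:118437344-118437593, minus strand) and Hmgb2 (chr8:57511593-57511842, plus strand) are shown since they were among the mitosis genes that fell most. Top2a (chr11:99024190-99024439, minus strand) belongs to the proliferation gate. Mcm6 (chr1:128359706-128359955, minus strand), a subunit of the replicative helicase, stands for the replication list, and Acer2 (chr4:86874164-86874413, plus strand) for the superficial gate.
Cdc20: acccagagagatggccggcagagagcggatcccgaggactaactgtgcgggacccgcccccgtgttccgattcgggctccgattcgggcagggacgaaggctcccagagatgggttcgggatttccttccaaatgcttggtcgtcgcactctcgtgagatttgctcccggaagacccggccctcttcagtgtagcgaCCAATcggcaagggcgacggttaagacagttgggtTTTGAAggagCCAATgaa
Hmgb2: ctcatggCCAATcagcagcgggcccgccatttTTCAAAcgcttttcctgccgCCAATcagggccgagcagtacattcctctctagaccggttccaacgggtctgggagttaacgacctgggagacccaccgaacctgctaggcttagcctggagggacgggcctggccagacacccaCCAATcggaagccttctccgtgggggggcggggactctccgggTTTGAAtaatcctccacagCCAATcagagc
Top2a: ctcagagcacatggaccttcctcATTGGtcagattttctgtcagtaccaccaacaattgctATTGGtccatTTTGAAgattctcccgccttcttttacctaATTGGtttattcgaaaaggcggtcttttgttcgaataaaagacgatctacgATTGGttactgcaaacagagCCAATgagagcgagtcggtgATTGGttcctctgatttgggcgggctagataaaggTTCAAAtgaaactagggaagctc
Mcm6: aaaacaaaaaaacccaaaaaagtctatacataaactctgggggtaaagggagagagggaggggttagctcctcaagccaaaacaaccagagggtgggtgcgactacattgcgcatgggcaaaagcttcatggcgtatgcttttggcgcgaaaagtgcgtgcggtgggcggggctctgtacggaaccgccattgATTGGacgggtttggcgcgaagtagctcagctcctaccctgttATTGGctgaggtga
Acer2: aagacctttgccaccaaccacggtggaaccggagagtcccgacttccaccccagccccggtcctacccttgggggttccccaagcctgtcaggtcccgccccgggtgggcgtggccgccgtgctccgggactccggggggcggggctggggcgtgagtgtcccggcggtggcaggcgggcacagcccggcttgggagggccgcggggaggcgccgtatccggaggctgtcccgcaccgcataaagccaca
TTTGAA was matched 1 time in the window of Cdc20, 2 times in that of Hmgb2 and 2 times in that of Top2a, and 0 times in those of Mcm6 and Acer2. CCAAT was matched 2, 4, 6, 2 and 0 times in the same order. A match describes letters and does not show a site that is bound.

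The balance of S phase against mitosis was read from the summed UMIs of the 43 replication and 45 mitosis genes, none of them in the proliferation gate. The log2 ratio of replication to mitosis UMIs was -1.38 and -1.43 in the cycling superficial-gate cells of the acute and -1.11 and -1.20 in those of the chronic libraries. In the healthy libraries, with 6 cells each, it was -2.49 and -2.10. In cycling intermediate-gate cells it was -1.82, -2.11, -1.77 and -1.63 in acute 1, acute 2, chronic 1 and chronic 2, so that the superficial-gate cells had the higher ratio in these 4 libraries. In healthy 1 they did not, with -2.43 in 57 cycling intermediate-gate cells, and in healthy 2 the 7 cycling intermediate-gate cells had -2.48. The mean difference was 0.55 ± 0.14 (SD, n = 4 libraries; exact sign-flip permutation test, p = 0.125, the smallest that 4 libraries can give). Cycling basal-gate cells had -2.26 and -2.22 in the acute libraries, a difference of 0.84 ± 0.06 (SD, n = 2; exact sign-flip permutation test, p = 0.5, again the smallest possible). The designs could therefore not reach 0.05. With gates on cells thinned to 10000 UMIs the differences were 0.51 and 1.04. Non-cycling superficial-gate cells had ratios of -1.14, -1.26, -1.62 and -1.65 in acute 1, acute 2, chronic 1 and chronic 2. These were above the cycling cells of the same gate in both acute libraries and below them in both chronic ones. They were also above the cycling intermediate-gate cells in acute 1, acute 2 and chronic 1, but not in chronic 2. A higher ratio is therefore not particular to dividing cells.

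The summed level of mitosis genes was lower than in cycling intermediate-gate cells, and that of replication genes overlapped with theirs. The mitosis list summed to 5577, 5956, 5783 and 5929 CPM in the cycling superficial-gate and 8270.1, 9085, 8399.7 and 7578 CPM in the cycling intermediate-gate cells of acute 1, acute 2, chronic 1 and chronic 2. The replication list summed to 2147, 2210.4, 2677 and 2572 against 2339.7, 2104, 2469.7 and 2455 CPM. The first pair of ranges did not overlap and the second did. Most cells of the group still held more mitosis than replication UMIs, 670 of 706 or 94.9%. The share was 98.3% in the cycling intermediate-gate and 98.2% in the cycling basal-gate cells. These shares do not count cells in mitosis, as non-cycling superficial-gate cells also had more mitosis than replication UMIs in sum. In the 4 libraries above, the mitosis list summed in them to 1224, 1183, 1357 and 1333 CPM. Their replication list summed to 554, 492, 440 and 423 CPM.

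Between injuries the ratio was lower after acute than after chronic injury by 0.25 on the log2 scale (-1.40 ± 0.0373 and -1.16 ± 0.0661, SD, n = 2 each; exact permutation test, p = 0.333, the smallest possible), and both acute libraries were below both chronic ones.

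**Figure D4:**
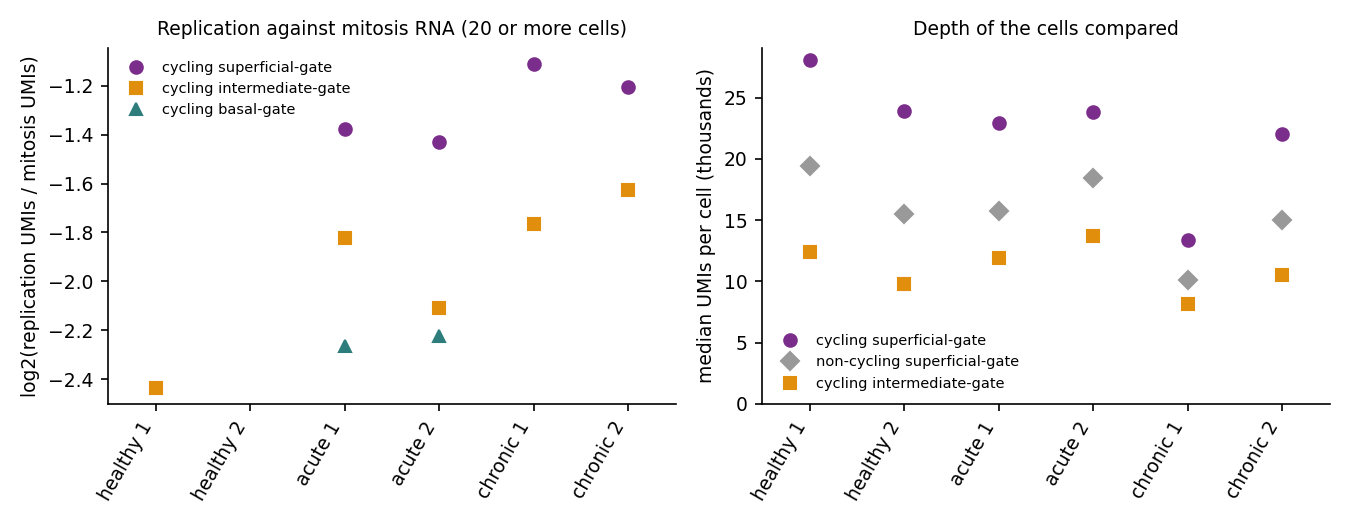
On the left, each point is the log2 ratio of summed replication to mitosis UMIs (y axis) of 1 class of cycling cells in 1 library (x axis), where the class had at least 20 cells. On the right, each point is the median number of UMIs per cell, on an axis in units of 1000, of a class in a library. In the 4 injured libraries the superficial-gate points lie above the intermediate-gate points in both panels.

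Acute and chronic injury were compared gene by gene in the cycling superficial-gate cells. No gene was called at an adjusted p below 0.05 in edgeR (quasi-likelihood, Benjamini-Hochberg), so 0.0% of 9412 genes were called in either direction, 256 genes (2.72%) being higher and 283 (3.01%) lower after acute injury at an unadjusted p below 0.05. DESeq2 called 1 higher and 4 lower. In the non-cycling superficial-gate cells of the same libraries edgeR called 0 of 11422 genes as well, with 478 at an unadjusted p below 0.05. Both acute libraries were above both chronic ones for 19.5% of the genes and below them for 15.7%.

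The genes with the lowest unadjusted p in each direction are therefore given as values. Klf5, a transcription factor of urothelial growth and differentiation, was at 226 and 319 CPM in acute 1 and acute 2 and 96.5 and 119 CPM in chronic 1 and chronic 2 (log2 fold change 1.31, SE 0.270, adjusted p = 0.398). In the healthy libraries it was at 124 and 33.6 CPM. Nrip1 (acute against chronic, as for the genes that follow), a nuclear receptor corepressor, was at 179 and 156 against 59.0 and 76.1 CPM, Flrt3, an adhesion protein, at 179 and 150.1 against 30.2 and 69.3 CPM, and 9130008F23Rik at 130.1 and 107 against 40.3 and 48.8 CPM. Eif4ebp2, a brake on translation, was at 59.5 and 376 against 18.7 and 35.1 CPM, where acute 2 stood apart from all other libraries, as it did in non-cycling cells with 349 CPM. The groups did not overlap for any of these 5 genes, which is the case for 19.5% of all genes in this direction.

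In the other direction Sprr2f was at 24.7 and 26.8 CPM after acute and 77.8 and 76.1 CPM after chronic injury (log2 fold change -1.61, SE 0.249, adjusted p = 0.140). Sprr2b, of the same family, was at 31.6 and 37.6 against 90.7 and 74.1 CPM, Tuba1c, an alpha tubulin, at 42.1 and 53.1 against 171 and 100.5 CPM, Txnip, an inhibitor of thioredoxin, at 34.7 and 42.2 against 86.4 and 87.8 CPM, and Rnaset2b, a lysosomal ribonuclease, at 38.3 and 17.7 against 64.8 and 139.5 CPM. Again both chronic libraries were above both acute ones for each gene. The 2 Sprr2 genes, and Rnaset2b with its near copy Rnaset2a, have relatives whose reads may be shared, so their levels are uncertain.

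By list, 16 of 43 replication genes were below both chronic libraries in both acute ones and 1 above (median log2 fold change -0.32), against 15.7% and 19.5% of all genes. Of 44 mitosis genes 11 were below and 3 above (median -0.03). Of 5 uroplakin genes 2 were below and 0 above (median -0.37). Of 10 immune genes 7 were below and 0 above, and the 16 immune genes summed to 51.0 and 127 CPM in the acute and 194 and 267 CPM in the chronic libraries, with 1, 1, 3 and 2 of them at 0. The 8 mesenchymal genes summed to 75.6 and 644 CPM and to 132 and 91.7 CPM. The part of such RNA in the differences between injuries was not tested.

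Lastly, the acute minus chronic difference of the cycling cells was set against that of the non-cycling cells in the same libraries. This contrast was tested as an interaction in edgeR (quasi-likelihood), and p-values were adjusted over 11948 genes. Replication genes led it. It called 1 gene higher (0.00837%) and 6 lower (0.0502%), with 343 and 316 at an unadjusted p below 0.05. Of 43 replication genes 4 were called lower and 0 higher, and 39 had a negative value (median -0.84, against 0.02 over all genes). Of 45 mitosis genes 0 were called, with a median of -0.27.

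Hells, a chromatin remodeller of replicating DNA, was at 62.0 and 70.3 CPM in the cycling cells after acute and 96.5 and 93.7 CPM after chronic injury. In non-cycling cells it was at 17.6 and 9.75 CPM after acute and 6.24 and 7.0 CPM after chronic injury. The gap between cycling and non-cycling cells was therefore narrower after acute injury, from both sides (interaction -1.61, SE 0.277, adjusted p = 0.00580). Lig1, the ligase that joins Okazaki fragments, was, acute against chronic, at 139 and 155 against 129.6 and 175 CPM in cycling and 28.6 and 32.1 against 13.8 and 16.9 CPM in non-cycling cells (-1.06, SE 0.191, adjusted p = 0.00705). Its levels in cycling cells overlapped between injuries, and those in non-cycling cells did not.

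Mcm6 and Mcm5, subunits of the replicative helicase, had interactions of -1.31, SE 0.252, adjusted p = 0.00911 and -1.23, SE 0.245, adjusted p = 0.0146. Mcm6 was at 55.2 and 54.4 against 76.3 and 84.9 CPM in cycling and 16.8 and 11.9 against 8.27 and 9.17 CPM in non-cycling cells, and Mcm5 at 73.6 and 67.1 against 83.5 and 88.8 CPM and at 16.0 and 14.5 against 6.67 and 9.48 CPM. Both were lower after acute injury in cycling cells and higher in non-cycling cells, without overlap. Apitd1, a centromere and DNA repair protein outside the replication list, had -0.98, SE 0.199, adjusted p = 0.0172, at 82.2 and 98.9 against 121 and 106 CPM in cycling and 27.8 and 31.6 against 21.2 and 17.6 CPM in non-cycling cells.

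Ttr, the carrier of thyroid hormone and retinol, had -1.26, SE 0.234, adjusted p = 0.00847, with 16.0 and 33.1 against 60.5 and 63.4 CPM in cycling and 22.6 and 42.7 against 36.7 and 35.1 CPM in non-cycling cells, where the injuries overlapped. Hells, Mcm6, Mcm5 and Ttr averaged under 50 CPM over the 8 sums and are named because only 7 genes were called. The one gene called higher was Areg, a ligand of the EGF receptor, at 437 and 198 against 121 and 141 CPM in cycling and 431 and 129.7 against 217 and 203 CPM in non-cycling cells (0.91, SE 0.175, adjusted p = 0.00911). Of genes that averaged 50 CPM or more and did not pass, those with the lowest unadjusted p and a positive value were Phlda1 (0.58), Hbegf (0.62), Cdkn1a (0.64), Flrt3 (0.70) and Tnfaip2 (0.55), at adjusted p of 0.184 to 0.623 in edgeR. Those with a negative value were Ly6k (-0.64), Tk1 (-0.88), Cenpm (-0.60), Cks1b (-0.56) and Rrm2 (-0.84), at 0.443 to 0.651. DESeq2 called 0 genes in this contrast, with 116 at an unadjusted p below 0.05, and without chronic 2 edgeR called 0 as well, with 579 at an unadjusted p below 0.05. Non-cycling cells were those with up to 2 proliferation UMIs, and in acute 1, acute 2, chronic 1 and chronic 2 the replication list summed to 554, 492, 440.0 and 423 CPM in them and the mitosis list to 1224, 1183, 1357 and 1333 CPM. The replication sum of non-cycling cells was thus higher in both acute than in both chronic libraries, and the mitosis sum lower. The gate used no replication gene, so a cell with replication RNA and up to 2 proliferation UMIs counted as non-cycling. The part of such cells in the interaction was not tested.

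**Figure D5:**
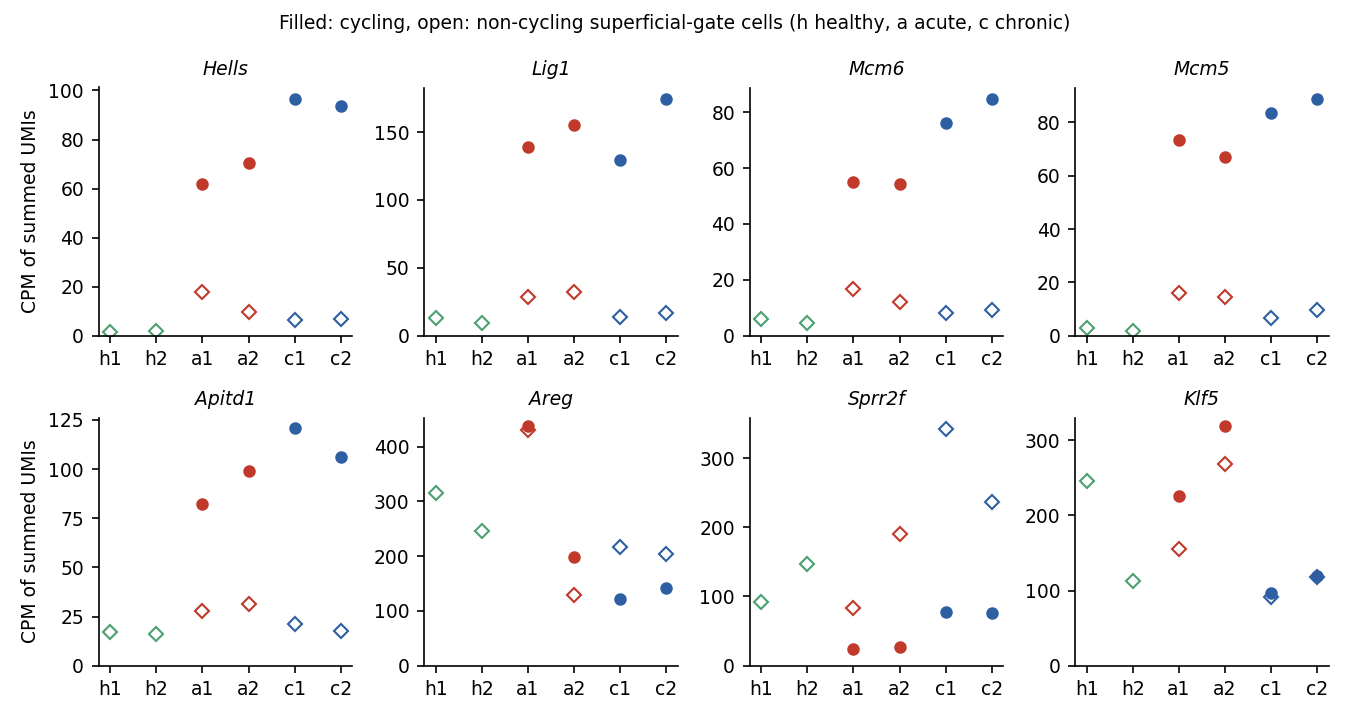
Each panel is a gene and each point its level in CPM of summed UMIs (y axis) in 1 library (x axis; h healthy, a acute, c chronic), filled for cycling and open for non-cycling superficial-gate cells; cycling cells of healthy mucosa, 6 per library, are not drawn. For Hells, Mcm6 and Mcm5 the filled acute points lie below the filled chronic points while the open acute points lie above the open chronic points.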

How the data were processed

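The authors made droplet libraries of bladder mucosa, aligned the reads to the mouse genome mm10 with Cell Ranger per the submitters' processing notes, and deposited, for every library, 1 table that holds the UMI count of each gene in each cell. The healthy 1 table ends in an incomplete line, which was dropped, and the acute 2 table lists 20180 genes against 15065 to 18295 in the others, so only the 14450 genes listed in all 6 tables were used, without mitochondrial and ribosomal protein genes. Samples were grouped by the labels. The gates were applied to single cells, UMIs were summed per library and class, and CPM are shares of these sums. A pseudocount of 1 CPM was added before log2 differences with no test. A class entered a comparison in libraries with at least 20 cells of it. Library depth was 54604109 to 111985678 UMIs, and healthy libraries, with 6 cycling cells each, entered tests across genes only in an alternative with at least 5 cells per library.

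Genes were tested with edgeR 4.0.16 (TMM, filterByExpr, quasi-likelihood, R 4.3.3) with Benjamini-Hochberg adjustment at 0.05, on libraries as replicates, with the library as a block where both classes came from the same libraries. DESeq2 1.42.0 was an alternative. Shares and the replication to mitosis ratio were compared by exact permutation over libraries, both two-sided, and the binomial intervals came from scipy 1.17.1. The edgeR fits were also run on simulated counts, in which libraries differed by depth and noise but had no effect of their own. That run therefore does not show how the tests hold in these data. Doublets were scored with Scrublet (scanpy 1.11.5), whose own threshold marked 0 to 7 cells per library, so the highest scores were called at 0.8% per 1000 cells. Genes were named by rule. In each test across genes these were up to 10 in each direction with the largest change that passed the test, averaged 50 CPM or more and did not overlap between groups, or, where fewer than 5 passed, the 5 with the lowest unadjusted p, given as not passing. Of the interaction's 7 called genes, 4 below 50 CPM (Hells, Mcm5, Mcm6 and Ttr) were named after their values were seen. In the comparison of cycling with non-cycling cells they were the 12 largest mean differences in each direction, and from each list the members at the ends of its order and examples. The members and all gene lists were chosen with earlier results of these data known. Alternatives are given in the closing section; those with cells thinned to 10000 UMIs, cells with no basal UMI and a crossed replicate block were added after the data were seen.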

Additional observations from a re-analysis of the deposited data

Results flagged for a closer look

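The difference between acute and chronic injury was not the same in cycling and non-cycling superficial-gate cells for 7 genes, by a test of that difference itself (edgeR's quasi-likelihood interaction test with Benjamini-Hochberg adjustment over all genes). The log2 interaction was negative, so that acute injury went with a lower value relative to chronic injury in cycling than in non-cycling cells, for Hells (-1.61, adjusted p = 0.00580), Mcm6 (-1.31, adjusted p = 0.00911), Ttr (-1.26, adjusted p = 0.00847), Mcm5 (-1.23, adjusted p = 0.0146), Lig1 (-1.06, adjusted p = 0.00705) and Apitd1 (-0.98, adjusted p = 0.0172). It was positive for Areg (0.91, adjusted p = 0.00911). DESeq2 called none of them, and none was called by edgeR without chronic 2. The proliferation gate itself separates the classes, and its part in the interaction was not tested.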

How the results depend on the processing

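Under alternative settings, 137 of the compared values and counts kept their direction and their side of the threshold, or stayed within 1.5 times the count given, while 13 became weaker, 14 stronger, 6 moved and 1 reversed. The chronic minus healthy difference in the cycling share turned to -2.16 percentage points with cells thinned to 5000 UMIs and was 0.0 at 3000 UMIs, and the cause was not tested. Leaving out each library in turn gave 17.3 to 37.2 points for acute minus healthy, 5.23 to 7.72 for chronic minus healthy and 10.8 to 30.7 for acute minus chronic mucosa. Between acute and chronic injury, where edgeR called 0 genes higher and 0 lower, 49 and 47 were called with no expression filter, 1 and 4 by DESeq2, and 0 to 84 and 0 to 51 with 1 library left out (84 and 51 without acute 1, 16 and 43 without acute 2). In the interaction, 0 genes were higher and 3 lower at a proliferation sum of at least 6, 5 were higher at an Acer2 and Krt20 sum of at least 10, 3 with no filter and 3 in cells thinned to 10000 UMIs, 0 and 0 by DESeq2, and 0 to 13 and 0 to 9 with 1 library left out (13 and 9 without acute 1, 0 and 3 without acute 2, 0 and 4 without chronic 1, 0 and 0 without chronic 2). Of 144 cell cycle genes, DESeq2 called 4 higher and 36 lower than in cycling basal-gate cells. Against cycling intermediate-gate cells it called 8 higher and 45 lower of 143. Lower than in the latter were 33 of 133 with cells thinned to 10000 UMIs, where 10.5% of all genes were lower. With 1 library left out, 10 to 14 were higher and 46 to 64 lower of 134 to 144. No share over all genes was counted for DESeq2 or with a library left out, so those counts lack a background. Genes at least 1.5-fold lower in cycling than in non-cycling cells, 40 in all, numbered 66 at a proliferation sum of at least 6, 74 in cells with no basal UMI and 59 to 78 with 1 library left out (78 without acute 2, 72 without chronic 1, 62 without chronic 2), and those higher 553 to 581. Fewer libraries had to pass in the last cases.

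The labels number the libraries 1 and 2 in each condition without saying that a number marks a shared batch. The deviations of acute 1 and chronic 1 from their group means had a correlation of -0.21 over 3185 genes. With the replicate block, 12 genes were higher and 37 lower after acute than after chronic injury. The difference in the replication to mitosis ratio is -0.25 with the block and without it, since 2 libraries a condition are balanced over the numbers. With the crossed pairing, 0 genes were called in either direction. Leaving out a library in the gene tests against basal-gate cells was not run, since no residual degrees of freedom would be left. With libraries of at least 5 cells, 0 of 8251 genes were called in edgeR between acute and healthy mucosa, with 564 at an unadjusted p below 0.05. Depth and the 6 cells per healthy library limit what can be said of healthy mucosa.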
